A study of Rattus norvegicus with 2 samples.

Results

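The 35 genes described here serve protein folding, export and stress signalling in the endoplasmic reticulum. They were taken by symbol from both protein-coding tables, out of 13706 protein-coding genes with at least 1 read in either library, and were sorted by role into 5 groups: 10 luminal and membrane chaperones and oxidoreductases, 7 genes of protein degradation, 9 of the translocon, 4 stress sensors and their factors, and 5 of the Atf4 branch. Reads were listed for 34 of them. Derl2, a retrotranslocation factor, was listed in neither table; taken as 0 reads, it could have had up to 3 reads in each library (0.213 and 0.199 per 1000000 reads), and whether the annotation used for counting held it is not given in the sources used here.

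The samples were myocardium of spontaneously hypertensive rats, an inbred strain with high blood pressure and an enlarged heart. One library came from rats given KXH, the high dose (9.6 g/kg) of the herbal Jiangya Kangxian formula, by the intragastric route for 12 weeks. The other came from rats of the same strain given distilled water for 12 weeks, so both groups were hypertensive and there was no normotensive group. There was 1 library per group, and the labels say neither how many animals a library holds nor their age. The protein-coding tables held 14.1 M reads for KXH and 15.1 M for water (M, 1000000), of which 52296 and 53702 fell on the 34 listed genes. The cardiomyocyte myosin Myh6 stood at 4794 RPKM with KXH and 4824 with water (RPKM, reads per kilobase of gene length per 1000000 reads), a level that fits the labelled tissue. A single library per group allows no replicate check and no test, so "higher" and "lower" compare these libraries only. Each RPKM ratio of KXH over water is followed by its 95% exact (Clopper-Pearson) interval, which covers counting error only and holds no variation between animals.

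Proteins bound for secretion or for a membrane enter the endoplasmic reticulum through the Sec61 channel and are folded there by calcium-binding lectins, Hsp70-type chaperones and disulfide isomerases. Chains that fail to fold are pulled back to the cytosol and degraded. When unfolded protein builds up, the membrane sensors encoded by Ern1, Eif2ak3 and Atf6 start the unfolded protein response: Ern1 splices the Xbp1 transcript, Atf6 is cleaved to a transcription factor, and Eif2ak3 slows translation while favouring that of Atf4. In heart muscle the same membrane system also stores the calcium for contraction, and the response is known from pressure overload and ischaemia.

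Many chaperone genes carry the endoplasmic reticulum stress response element, to which Atf6 and Xbp1 proteins bind. It was searched on both strands as CCAAT and CCACG separated by 9 bases of any kind. Its second form was searched as ATTGG and CCACG separated by 1 base. The windows were RefSeq promoters of the GRCr8 assembly, 250 bases before to 50 after a gene's start, and those of 26 of the 35 genes were searched. Pdia3, Pdia6, Manf, Derl1, Os9, Sec61a1, Ern1 and Atf6 had no entry. The first form was found in 21 of the 33468 promoters searched (0.0627%), among them those of 3 members, Calr, Creld2 and Xbp1. The second form was found in 17 promoters (0.0508%), among them those of 2 members, Hyou1 and Herpud1. The elements are shown as a feature of the sequence. The genes were chosen as genes of this response, many of which are known to carry the element. Its presence among them is therefore no independent finding. Capitals mark the element, written 5′ to 3′ on the gene's own strand.

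Calr, chr19:40213125-40213163, plus strand: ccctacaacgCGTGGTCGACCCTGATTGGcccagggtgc

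Creld2, chr7:121789229-121789267, plus strand: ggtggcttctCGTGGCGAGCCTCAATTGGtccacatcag

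Xbp1, chr14:84604548-84604586, plus strand: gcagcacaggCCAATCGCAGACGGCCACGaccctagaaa

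Herpud1, second form, chr19:10614811-10614841, minus strand: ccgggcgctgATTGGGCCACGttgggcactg

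Hyou1, second form, chr8:53602684-53602714, plus strand: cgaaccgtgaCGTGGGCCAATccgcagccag

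Hyou1, second form again, chr8:53602784-53602814, plus strand: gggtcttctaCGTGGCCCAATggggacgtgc

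In Calr, Creld2 and at both places in Hyou1 the element ran on the strand opposite to the gene, and in Xbp1 and Herpud1 on the gene's own strand. The outer ends lay between 232 bases (Calr) and 65 bases (Xbp1) before the start. The core of the unfolded protein response element, TGACGTGG, was in 199 promoters (0.595%) and in 1 member, Hyou1, where it overlapped the first of the Hyou1 elements above. The Atf4 core TTGCATCA was in 266 promoters (0.795%) and in 1 member, Herpud1. A second Atf4 core, TGATGAAAC, was in 70 promoters (0.209%) and in no member. All 5 genes shown with either stress response element had a ratio above 1, between 1.05 and 1.13, with a median log2 ratio of 0.09. Of the 19 measured genes whose promoter was searched and held neither element, 16 were above 1, with ratios from 0.859 to 1.44 and a median of 0.12. Members with and without an element were thus both mostly above 1, and no difference between them was tested. A match of letters is no measurement of binding.

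Nearly all members were slightly higher in the KXH library. Of the 33 with a mean of at least 1 RPKM, 29 had a ratio above 1 (87.9%), whereas 45% of the 10467 protein-coding genes at that level did. Their median log2 ratio was 0.09, against -0.02 over all those genes (log2 of RPKM + 1). The differences were small: 4 members were at least 1.2-fold higher (12.1%), namely Sec61b, Manf, Sdf2l1 and Ssr4, where 7.5% of all genes passed that fold. No member was at least 1.2-fold lower, where 12.1% of all genes were. Thinly read genes pass a fold more readily by counting error alone, and these fold counts were not compared at equal depth.

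Counting intervals lay above 1 for 12 members (36.4%) and for 11.2% of all genes. They lay below 1 for 1 member, Sec63, and for 16.3% of all genes. Deeply read genes have narrower intervals, so the same counts were made over genes with at least 200 reads in sum. There the interval lay above 1 for 12 of 31 members (38.7%) and for 12.3% of genes, and below 1 for 1 member and for 17.4% of genes. Summed over the 34 listed members, reads came to 3720 with KXH and 3557 with water per 1000000 reads, a ratio of 1.05 (1.03 to 1.06). The spread of log2 ratios (robust SD) was 0.08 among the members and 0.15 among all genes tested. Spread also depends on read depth, and it was not compared at equal depth.

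**Figure D1:**
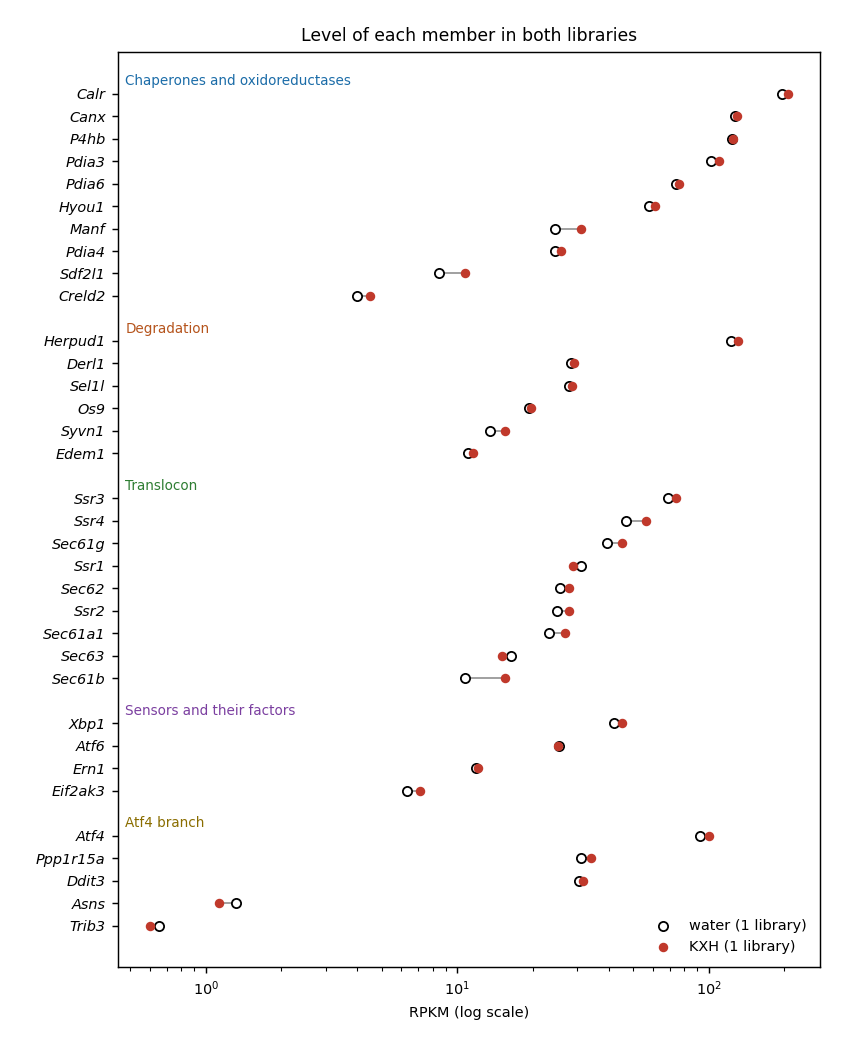
Level of each listed member in RPKM on a log axis, red for the KXH library and open for the water library (1 library each), by role and mean level. Calr was the most abundant at 207 and 196 RPKM and Trib3 the least at 0.601 and 0.653 RPKM, and in most rows the red point lies just to the right.

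The chaperones and oxidoreductases were the most abundant group, at 781 RPKM with KXH and 744 with water in sum, and all 10 had a ratio above 1, with a median log2 ratio of 0.08. Calreticulin (Calr), a calcium-binding lectin that holds glycoproteins until they fold, had the highest level of all members, 207 RPKM with KXH and 196 with water (5416 and 5531 reads). Its ratio was 1.05 (1.01 to 1.09). Its membrane-bound relative calnexin (Canx) was at 129 and 128 RPKM, and no difference was detectable at 9072 and 9609 reads (ratio 1.01, 0.985 to 1.04).

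Disulfide isomerases catalyse the pairing of cysteines in new proteins. Pdia3, the isomerase that works with Calr and Canx, was at 110.0 RPKM with KXH and 102 with water (ratio 1.08, 1.02 to 1.14). P4hb, the founding isomerase and a subunit of collagen prolyl hydroxylase, was at 125 and 124 RPKM, the ratio nearest to 1 in this group (1.01, 0.971 to 1.05). Pdia6 stood at 76.4 and 74.5 RPKM and Pdia4 at 25.95 and 24.6 RPKM, both with intervals that include 1. Among the 4 isomerases only the interval of Pdia3 was above 1.

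The other luminal factors reached from a level near that of the isomerases to the lowest of the group. Hyou1, an Hsp70-type chaperone and exchange factor, was at 61.2 RPKM with KXH and 57.9 with water (ratio 1.06, 1.01 to 1.11). Manf, a small secreted protein held in the endoplasmic reticulum under calcium-replete conditions, was at 31.2 and 24.6 RPKM from 241 and 204 reads, 1.27-fold higher (1.05 to 1.54). On the next lower level, Sdf2l1, a partner of luminal Hsp40 cochaperones, was at 10.8 and 8.47 RPKM from 161 and 136 reads, 1.27-fold higher (1.01 to 1.61). Creld2, a stress-induced protein with isomerase activity, had only 85 and 81 reads and a ratio of 1.13 (0.822 to 1.55). Manf and Sdf2l1 were the only chaperones past 1.2-fold, on few reads each. With the trend of ratios on gene length removed, described further on, the lower ends of their intervals were 0.982 and 0.977, so that both then include 1.

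**Figure D2:**
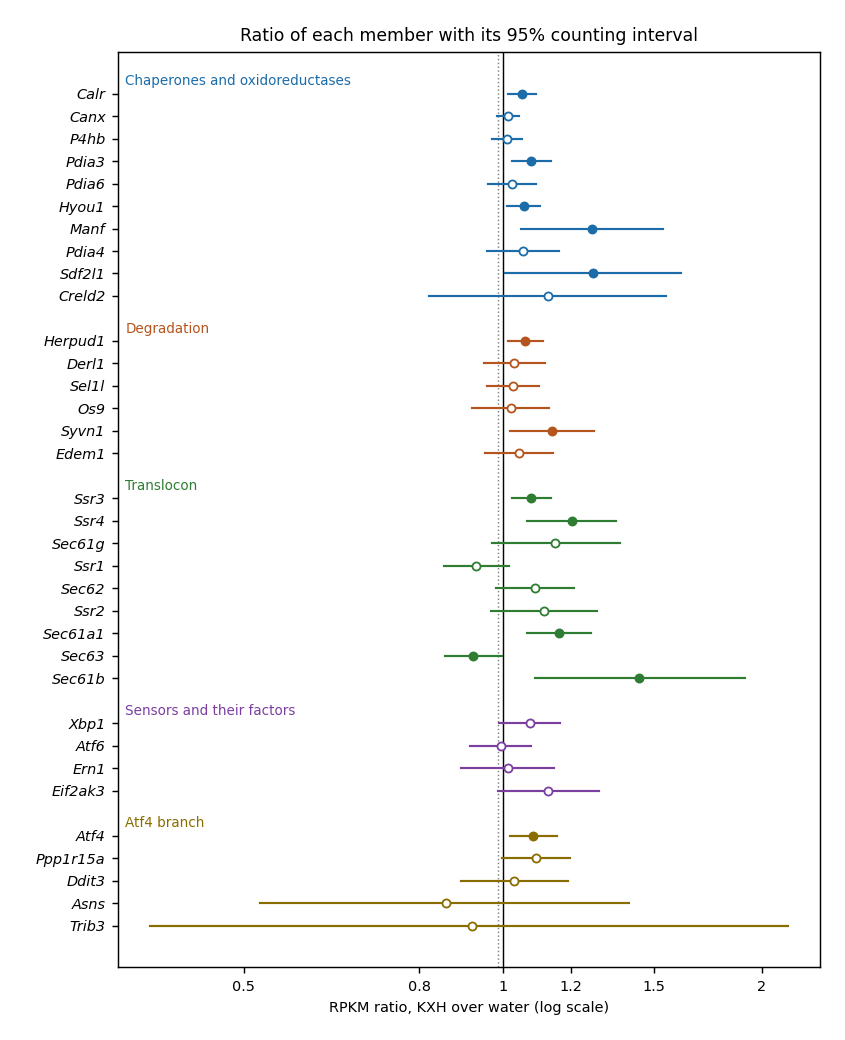
RPKM ratio of KXH over water for each listed member on a log axis, with lines for the 95% counting interval (1 library per group). Filled points have intervals that leave out 1, the solid line marks 1 and the dotted line the median of all genes. The filled points are 12 members above 1 and Sec63 below it.

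All 6 measured degradation genes had ratios above 1, with a median of 0.05 on the log2 scale. Herpud1, a membrane scaffold of the retrotranslocation complex and a well-known stress target, was by far the most abundant at 131 RPKM with KXH and 123 with water (ratio 1.06, 1.01 to 1.11). Syvn1, the ubiquitin ligase at the centre of that complex, had the largest ratio of the group, 15.5 against 13.6 RPKM (1.14, 1.02 to 1.28). Its partner Sel1l was at 28.5 and 27.8 RPKM (1.03, 0.958 to 1.1), so the ligase and its adaptor each lay within 1.2-fold.

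The remaining degradation genes lay as close to the water level. The derlin Derl1, which helps to pull substrates back across the membrane, was at 29.1 RPKM with KXH and 28.3 with water. The lectin Os9, which recognises trimmed glycans, was at 19.7 and 19.3 RPKM, and Edem1, which takes part in trimming them, at 11.53 and 11.05 RPKM. Their ratios were between 1.02 and 1.04, and each interval includes 1.

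Translocon genes had a group median of 0.15 on the log2 scale and the widest range of the 5 groups, from -0.11 to 0.49, with 7 of 9 members above 1 and 2 below. The log2 ratio of their summed reads, in which the abundant members weigh most, was 0.08. The channel itself consists of Sec61a1, the pore-forming subunit, and the small subunits Sec61b and Sec61g. Sec61a1 was at 26.9 RPKM with KXH and 23.1 with water (1146 and 1059 reads; ratio 1.16, 1.07 to 1.26). Sec61b was at 15.4 and 10.7 RPKM, the largest ratio of any member at 1.44 (1.09 to 1.91), on only 122 and 91 reads. Sec61g was at 45.4 and 39.5 RPKM (1.15, 0.970 to 1.37). All subunits of the channel were thus higher in the KXH library by value, and the interval of Sec61g includes 1.

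The subunits of the translocon-associated protein complex, which assists some signal sequences, did not share a direction. Ssr4, its delta subunit, was at 56.6 RPKM with KXH and 47.1 with water (583 and 521 reads), 1.202-fold higher (1.07 to 1.36). Ssr3, the gamma subunit, was at 74.4 and 68.9 RPKM (1.08, 1.02 to 1.14), and Ssr2, the beta subunit, at 27.7 and 24.9 RPKM (1.12, 0.968 to 1.29). Ssr1, the alpha subunit, lay on the other side of 1 at 28.9 and 31.0 RPKM (0.932, 0.855 to 1.02). The relation of Ssr1 to the other subunits was compared with an exact interval for the quotient of the 2 ratios. Ssr1 divided by Ssr4 gave 0.775 (0.668 to 0.899), divided by Ssr3 0.864 (0.781 to 0.956), and divided by Ssr2 0.835 (0.707 to 0.987). With the trend of ratios on gene length removed the quotient with Ssr2 was 0.865 (0.733 to 1.02), which includes 1, and those with Ssr4 and Ssr3 still left 1 out (0.818, 0.705 to 0.949, and 0.861, 0.778 to 0.953). In level per length, Ssr1 was 0.511 times Ssr4 with KXH and 0.659 times with water.

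Sec62 and Sec63 help proteins to enter after their synthesis is complete, with Sec63 recruiting the luminal Hsp70 chaperone. Sec63 was at 15.1 RPKM with KXH and 16.3 with water (1242 and 1444 reads), a ratio of 0.924 (0.856 to 0.997), and was the only member with an interval below 1. Centring all ratios on their median moves the upper end of its interval from 0.997 to 1.01, and removing the length trend moves it to 1.03, so that the interval includes 1 under either. Sec62 was at 27.9 and 25.6 RPKM (1.09, 0.982 to 1.21), and the quotient of the Sec62 and Sec63 ratios was 1.18 (1.04 to 1.34). The authors' coverage of the Sec62 gene model was 73.0% and 65.6%, lower than for any other member with a mean of at least 1 RPKM. In all, 10 such pairs within the 3 translocon complexes were compared, and 4 had an interval that leaves out 1, all of them with Ssr1 or Sec63. With the length trend removed 3 of them did.

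For the stress sensors and their factors no difference was detectable at this depth. Ern1, the kinase and nuclease that splices Xbp1, was at 12.1 RPKM with KXH and 11.9 with water (501 and 531 reads; ratio 1.01, 0.895 to 1.15). Atf6 was at 25.2 and 25.4 RPKM (0.994, 0.916 to 1.08), a ratio that passes to 1.01 when centred on the median of all genes. Eif2ak3, also named PERK, was at 7.13 and 6.31 RPKM (450 and 428 reads; 1.13, 0.987 to 1.29). Xbp1, the factor made active by Ern1, was at 45.3 and 42.2 RPKM (1.07, 0.991 to 1.17). The 4 intervals all include 1, although those of Eif2ak3 and Xbp1 lie above 1 once ratios are centred on the median of all genes. A count per gene does not tell the spliced from the unspliced Xbp1 transcript, and the activity of the sensors is regulated on the protein, so neither was measured here.

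In the Atf4 branch the factor itself was a little higher, and the intervals of its targets include 1. Atf4, whose translation rises when Eif2ak3 is active, was at 100.8 RPKM with KXH and 92.9 with water (1997 and 1977 reads; ratio 1.08, 1.02 to 1.16). Ppp1r15a, the phosphatase subunit that ends the block of translation, was at 34.0 and 31.1 RPKM (1.09, 0.998 to 1.2, above 1 once centred). Ddit3, the pro-apoptotic factor CHOP, was at 31.6 and 30.6 RPKM (382 and 398 reads; 1.03, 0.894 to 1.19).

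The last of these targets were nearly silent. Asparagine synthetase (Asns) had 32 reads with KXH and 40 with water, 1.13 and 1.32 RPKM (0.859, 0.522 to 1.40). The pseudokinase Trib3 had 12 and 14 reads, 0.601 and 0.653 RPKM, below the minimum for the counts over members. The group's median log2 ratio over the 4 genes above that minimum was 0.08, with 3 above 1 and 1 below. Side by side, the medians of the 5 groups ran from 0.05 for degradation and 0.06 for the sensors, through 0.08 for both the chaperones and the Atf4 branch, to 0.15 for the translocon. This order depends on the summary. With summed reads the Atf4 branch was highest at 0.11 and the translocon next at 0.08, and the Atf4 branch was lowest at 0.04 with the length trend removed, with the mean in place of the median, and with Trib3 included. With 1 library per group the differences between these medians were not tested.

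The largest ratios belonged to short genes. The 4 members past 1.2-fold, Sec61b, Manf, Ssr4 and Sdf2l1, are 562, 550, 733 and 1064 bases long. Of the 7 members shorter than 1100 bases, these 4 passed that fold, while 14.9% of the 1326 genes of that length did. The cut of 1100 bases lies just above Sdf2l1, the longest of these 4, so the split of members at that length is not independent of them. The other short members are Sec61g, Ssr2 and Ddit3, and all 7 were above 1, with a median log2 ratio of 0.26 against 0.04 for all genes of that length. None of the 26 longer members passed 1.2-fold in either direction. Over all genes of any length, 7.5% were that much higher and 12.1% that much lower. The median of the longer members was 0.07 against -0.03 for all longer genes. Over all genes with at least 200 reads the median fell along 10 classes of length, from 0.05 for the shortest genes to -0.06 for the longest. With that trend removed, Sec61b and Sdf2l1 remained past 1.2-fold at 1.35 and 1.24, whereas Manf was at 1.19 and Ssr4 at 1.15. Those 2 of 33 members stood beside 750 of all 10467 genes that were then at least 1.2-fold higher. The share among the members was then no larger than that among all genes. The median of the 33 members was 0.09 with the trend removed. What lies behind the length trend was not tested.

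**Figure D3:**
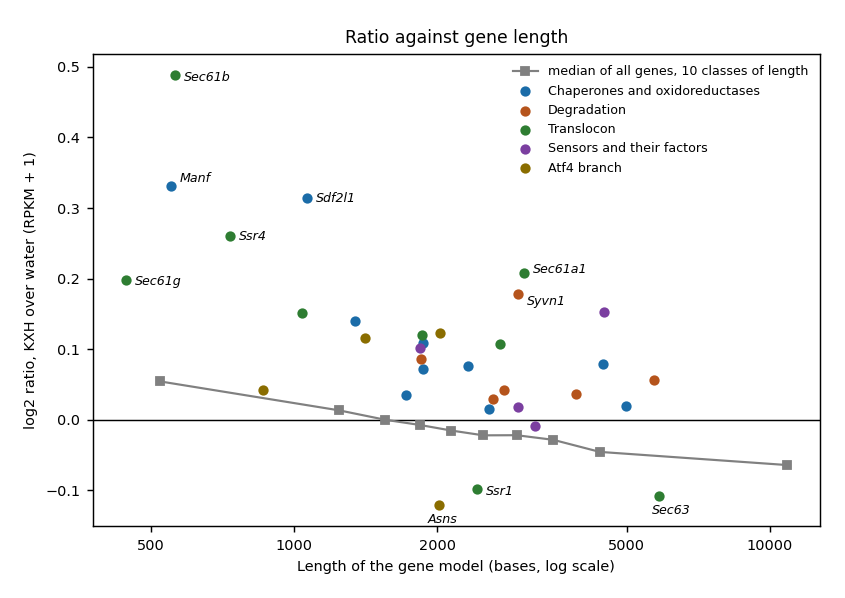
log2 ratio of KXH over water (RPKM + 1) against the length of the gene model for the 33 members with a mean of at least 1 RPKM, coloured by role. Grey squares are the medians of all genes with at least 200 reads in 10 classes of length, set at the middle of each class on the log axis. They fall from 0.05 to -0.06, and the members past 1.2-fold all lie among the short genes.

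Other genes of the same pathway, on lists drawn up by function with earlier results of these data known, had medians between 0.01 and 0.09. Of 27 other folding genes tested, 16 were higher and 11 lower, with a median log2 ratio of 0.05. None was at least 1.2-fold higher and 1 was at least 1.2-fold lower, against 7.5% and 12.1% of all genes. Hspa5, the luminal Hsp70 also named BiP and the classic reporter of this response, was at 248 RPKM with KXH and 207 with water (8923 and 7997 reads; ratio 1.198, 1.16 to 1.24). Hsp90b1, the luminal Hsp90, was at 128 and 121 RPKM (1.06, 1.02 to 1.1). The cyclophilin Ppib was at 80.9 and 71.9 RPKM (1.12, 1.03 to 1.23), and the oxidase Ero1lb, listed as Ero1b, at 5.02 and 5.77 RPKM with an interval of 0.660 to 1.14. The first form of the stress response element was also present in the promoter of Hspa5, at chr3:38452963-38453001 on the plus strand.

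Hspa5: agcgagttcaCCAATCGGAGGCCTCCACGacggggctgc

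In Hspa5, as in Xbp1, the element ran on the gene's own strand, with its outer end 43 bases before the start. Of all the other pathway genes, 5 held either element: Hspa5, Hsp90b1, the Hsp70 cochaperones Dnajc3 and Dnajb11, and the derlin Derl3. Dnajc3 had a ratio of 1.12 (0.995 to 1.27), and Dnajb11, with the second form, one of 0.965 (0.847 to 1.1). Derl3 had only 9 and 10 reads (0.967, 0.348 to 2.65). Leaving out Derl3, whose mean was under 1 RPKM, 3 of these 4 were above 1. So were 74 of 117 other pathway genes whose promoter held neither element, and 45% of all genes.

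Among 29 other genes of the translocon, the signal recognition particle, the signal peptidase and the oligosaccharyl transferase, 21 were higher and 8 lower. Their median was 0.09, and 9 had intervals above 1, where 11.2% of all genes did. At least 1.2-fold higher were 3 of them, against 7.5% of all genes, and none was that much lower, against 12.1%. Dad1 and Ost4, small subunits of the oligosaccharyl transferase, had ratios of 1.26 (1.11 to 1.44) and 1.25 (1.14 to 1.37). For the signal peptidase subunits Spcs2 and Sec11c they were 1.24 (1.13 to 1.36) and 1.19 (1.05 to 1.35). Dad1, Ost4 and Sec11c are 651, 552 and 677 bases long, and Spcs2 is 2956 bases long. Removing the length trend moved the median of this list to 0.06.

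The 21 other degradation genes had a median of 0.02 (12 higher, 9 lower). Those farthest from 0 at a mean of 5 RPKM or more were all higher: Tmub1 at 1.25 (1.02 to 1.53), the selenoprotein Vimp at 1.16 (1.01 to 1.33), the ubiquitin-conjugating enzyme Ube2j2 at 1.11 (1.01 to 1.23) and Ubxn4, a membrane anchor of the ATPase that extracts substrates, at 1.11 (1.02 to 1.21). The 9 other sensor genes had a median of 0.02 as well (5 higher, 4 lower). Atf6b, the relative of Atf6, was 1.15-fold higher (1.02 to 1.29), whereas Mbtps1, the protease that makes the first cut in Atf6, was at 0.924 of the water level (0.868 to 0.983). The intervals of Creb3 (1.13, 0.980 to 1.30) and Traf2 (0.934, 0.827 to 1.05) include 1.

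The 36 genes of transport between endoplasmic reticulum and Golgi had a median of 0.01 (22 higher, 14 lower). Among them Kdelr3 and Kdelr1, receptors that return escaped chaperones, had ratios of 1.36 (1.13 to 1.64) and 1.18 (1.09 to 1.27). For the fusion protein Sec22b the ratio was 1.33 (1.14 to 1.55), and for the vesicle coat protein Sec24d 1.14 (1.06 to 1.21). The 24 other Atf4-branch genes had a median of 0.04 with 14 higher and 10 lower. At least 1.2-fold higher were 2 and at least 1.2-fold lower 4, against 7.5% and 12.1% of all genes. With means under 5 RPKM, Slc7a1 was 1.43-fold higher (1.24 to 1.64) and Eif2ak4 was at 0.776 of the water level (0.658 to 0.914). At 5 RPKM or more, the factor Atf3 was 1.196-fold higher (1.04 to 1.37) and the tRNA synthetase Aars 1.15-fold (1.08 to 1.22). The secreted hormone Stc2 and the serine enzyme Shmt2 were at 0.773 (0.618 to 0.964) and 0.882 (0.80 to 0.972) of the water level. Genes of this list, which holds kinases upstream of Atf4 as well as targets, therefore lay on both sides of 1.

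**Figure D4:**
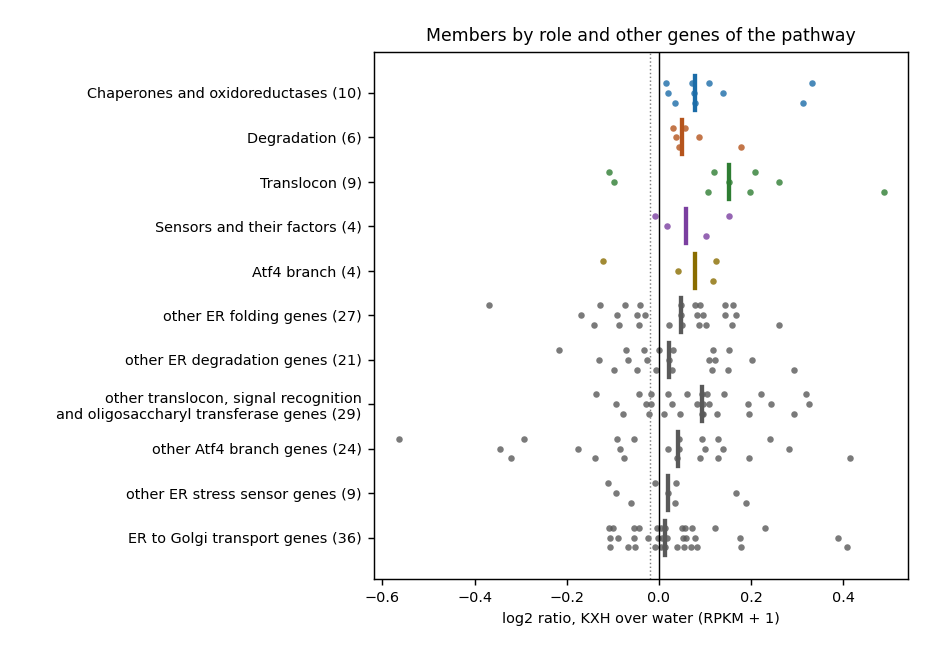
log2 ratio of KXH over water (RPKM + 1) for members by role (coloured) and for other genes of the pathway (grey), 1 point per gene whose mean was 1 RPKM or more and a thick bar for each list's median. The number of genes stands in parentheses, and the dotted line marks the median of all genes, -0.02. The translocon list has the highest median, 0.15, and the other translocon genes follow at 0.09.

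Secretory genes are expressed in every cell type of the heart, and bulk RNA does not tell fewer cells of a type from less RNA per cell. Markers of other cells differed between the libraries beside the members. Of 10 fibroblast markers 9 were higher in the KXH library and 7 had intervals above 1, with summed levels of 1019 and 915 RPKM. Of 9 endothelial markers none was higher and 8 had intervals below 1, with summed levels of 502 and 569 RPKM. Of 6 tested smooth muscle and pericyte markers none was higher and 5 had intervals below 1. The 7 listed summed to 274 and 319 RPKM. Cardiomyocyte markers were 6 of 9 higher, at 41353 and 38363 RPKM, with 6 intervals above 1 and 3 below. Macrophage markers were 5 of 9 higher, at 190.3 and 189.8 RPKM, with 1 interval above 1 and 1 below. Over all genes 11.2% of intervals lay above 1 and 16.3% below, and deeply read markers have narrower intervals. Of the plasma and B cell markers 6 were listed, summing to 2.33 RPKM with KXH and 3.90 with water, and 1 of them, Sdc1, reached a mean of 1 RPKM (1.04 and 1.54 RPKM). Mzb1, a chaperone of plasma cells, had 6 and 18 reads, and Jchain and Cd79a were listed in neither table. Red cell markers were lower, at 2274 against 3359 RPKM over 7 listed genes, of which Hbb alone made 2234 and 3283 RPKM. Of the 6 tested, 4 had intervals below 1, and 2 had intervals that include 1. One of the 4, LOC287167, had 0 reads with KXH and 101 with water. Ratios on totals without the red cell genes moved no member across 1. The part of these cell types in the members' ratios was not tested.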

How the data were processed

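Per the labels' protocols, RNA of frozen myocardium was extracted with Trizol and made into libraries with an Illumina TruSeq RNA kit. The submitters' processing notes name Bowtie 0.12.2 and the rn6 assembly. How genes were annotated and counted, and whether strand was used, is not given in the sources used here, so reads of overlapping or near-identical genes cannot be separated. Per the file headers, the deposited counts are unique reads per gene. Each deposited RPKM value was checked to be the gene's count over its length in kilobases and its table's total in units of 1000000 reads. The authors' coverage column was used to describe depth only.

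Ratios were taken from the RPKM values, an absent gene counting as 0 reads. Log2 ratios used RPKM + 1, and counts over genes a mean RPKM of 1 or more. Intervals (95%) and floors (3 reads) cover counting error only, since each group had 1 library. The reads carry no molecular identifiers, so copies of 1 molecule count as separate reads and the intervals may be too narrow. The length trend was a quadratic in log2 length over genes with 200 reads or more. The members, roles and other lists were chosen with earlier results of these data known. By rule, every sensor and every member whose interval left out 1 is named. From each other list up to 4 genes are named, of at least 5 RPKM on average and with the log2 ratio farthest from 0. Hspa5 and Hsp90b1 are named besides. Dnajb11 and Derl3 are named for their promoters, after their values were seen. Slc7a1 and Eif2ak4, under 5 RPKM on average, are named for intervals that left out 1, also after their values were seen. Older symbols were matched through the RefSeq table of GRCr8. The promoter of 1 member is not reported here. The alternatives were other pseudocounts, filters, scalings, fold thresholds and summaries. The steps were tested on simulated data. Software was Python 3.11.15 with numpy 2.4.6, scipy 1.17.1, pandas 2.3.3 and matplotlib 3.10.9.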

Additional observations from a re-analysis of the deposited data

How the results depend on the processing

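No paired analysis was possible because each group had 1 library, and no library could be left out. Median log2 ratios of the members and of the 5 role groups kept their sign and stayed within the counting interval of their middle genes under other pseudocounts, filters, scalings, the mean, summed reads and with the length trend removed. With a 1.1-fold threshold 10 members were higher and 1 lower, and 1940 and 2651 of all genes; with a 1.5-fold threshold 0 members were higher, and 146 and 260 of all genes were higher and lower. With the length trend removed 2 of the 33 members were at least 1.2-fold higher in place of 4, and 750 of the 10467 genes in place of 785. The share among the members was then no larger than that among all genes. At 1.2-fold, all genes gave 1882 higher and 2733 lower without a filter and 398 and 533 with a mean of at least 5 RPKM, against 785 and 1269. Centring on the median of all genes, or trimmed mean of M values (TMM) scaling, raised every ratio by 0.02 on the log2 scale: 15 member intervals then lay above 1 (Eif2ak3, Ppp1r15a and Xbp1 added) and 0 below, and Atf6 passed above 1. With the length trend removed 12 lay above 1, of which 10 were as before. Canx and Eif2ak3 were added and Manf and Sdf2l1 lost, the interval of Sec63 came to include 1 (upper end 1.03) so that 0 lay below, Ddit3 passed to 0.991 and Atf6 to 1.01. Interval counts over all genes are not given for these settings, so the changed counts of members have no background beside them. The order of the 5 group medians changed: the translocon was highest under every setting except summed reads (0.08, against 0.11 for the Atf4 branch). Degradation was lowest except with the length trend removed, the mean and no filter, where the Atf4 branch was (0.04 each), and with summed reads, where the chaperones were (0.05). The chaperones' mean was 0.12, against their median of 0.08. Depth limits Trib3, Asns and Creld2, whose intervals span more than 1.2-fold in both directions.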
